A study of Mus musculus with 2 samples.

Results

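The interleukin 6 family and its receptor chains are described here through 8 genes, of 55536 annotated genes measured. The ligands are Il6, Lif, Osm and Clcf1, and the receptor chains are Il6ra, Il6st, Lifr and Osmr. The genes were chosen by name, and each was found in the gene tables by its symbol in the annotation. The cells were bone marrow-derived macrophages from C57BL/6J mice, phagocytes differentiated in culture from marrow cells. They received 100 ng/ml lipid A for 12 h, had it washed out for 12 h, and received 100 ng/ml lipid A again for 120 min before polyA plus RNA-seq. Lipid A, the part of bacterial lipopolysaccharide that sits in the outer membrane, activates the receptor TLR4. Other label fields name the agent lipoprotein A, and the description of the experiment is followed here. Both libraries, biological replicates 2 and 1, belong to this treatment and no untreated or singly treated sample was analysed here, so the data describe levels and the spread between libraries, not a response. The labels give both libraries the same donor identifier and do not say that they came from separate animals, so that spread may be partly technical. Sex and age were not collected.

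Cytokines of this family signal through receptor complexes that share the chain gp130, the product of Il6st. Interleukin 6 first binds its own chain, the product of Il6ra, which holds the cytokine and brings it to gp130. Leukemia inhibitory factor (Lif) uses the Lifr chain with gp130, and mouse oncostatin M (Osm) uses the Osmr chain with gp130. Cardiotrophin-like cytokine factor 1 (Clcf1) acts with partner proteins through a complex that contains gp130 and the Lifr chain. Bound receptors activate JAK kinases and the transcription factor STAT3, and SOCS3 dampens the signal by binding gp130. In macrophages, Il6 is a textbook target of TLR4 signalling, and its promoter is known for NF-kB, C/EBP and AP-1 sites.

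The family split into genes with clear transcript levels and genes at or near the limit of detection. Il6, Osm, Il6ra and Il6st, 4 of the 8, reached a level of at least 1 TPM (a transcript abundance corrected for length and for sequencing depth) in both libraries. Il6 and Il6st also reached 10 TPM in both. Lif, Clcf1, Lifr and Osmr, the other 4, were under 1 TPM in both libraries. The posterior mean TPM, a further estimate in the authors' deposited gene table, was higher for these sparse genes and put Clcf1 at 1.39 TPM in replicate 2 and 0.77 TPM in replicate 1, and Lifr at 1.47 TPM in replicate 2 and 0.97 TPM in replicate 1. For comparison, 44.4% of the 22028 protein-coding genes were at or above 1 TPM in replicates 2 and 1 alike, and 27.2% at or above 10 TPM. Thus macrophages in this state held transcripts for interleukin 6 with both chains of its receptor and for oncostatin M, while transcripts of the receptor chains Lifr and Osmr were sparse.

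**Figure D1:**
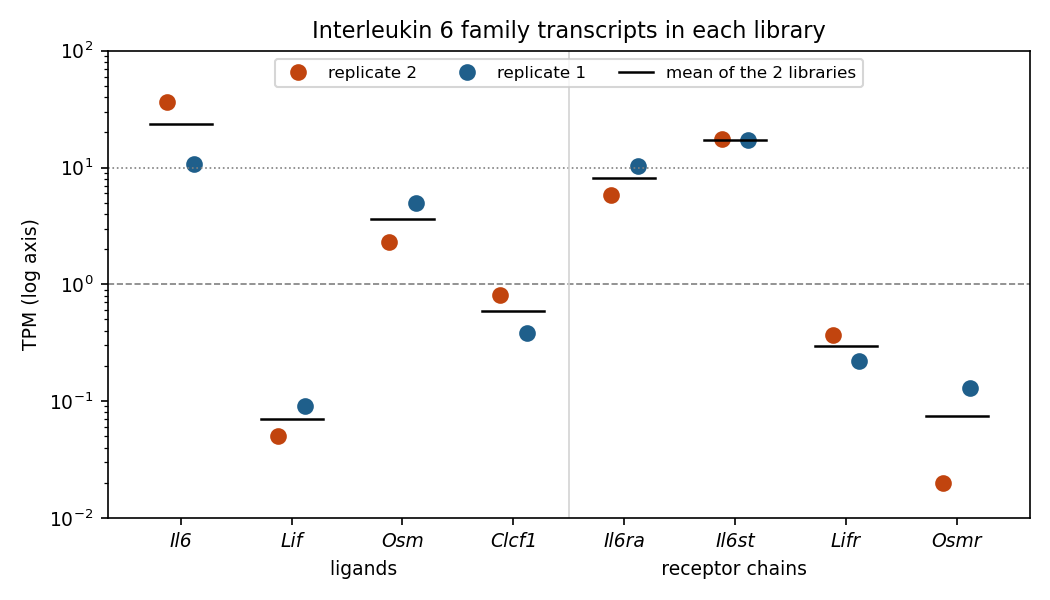
TPM of each family member on a log axis, ligands on the left and receptor chains on the right, with replicate 2 and replicate 1 as points and a black bar at their mean; the dashed line marks 1 TPM and the dotted line 10 TPM. Il6 at 36.3 TPM in replicate 2 and 10.7 TPM in replicate 1 is the widest apart of the 4 genes above 1 TPM, and the points of Il6st nearly coincide.

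The 250 bases upstream of the annotated starts of Il6 and Il6st are shown because these are the most abundant ligand and receptor transcripts of the set. Their upstream sequences also differ in matches to the letters of the 4 motifs searched. Both come from RefSeq on GRCm38.p6, plus strand, at chr5:30012864-30013113 for Il6 and chr13:112463820-112464069 for Il6st. Each window ends at the base before the first annotated base of the gene. Capitals mark matches to any of 4 searched motifs.

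Il6: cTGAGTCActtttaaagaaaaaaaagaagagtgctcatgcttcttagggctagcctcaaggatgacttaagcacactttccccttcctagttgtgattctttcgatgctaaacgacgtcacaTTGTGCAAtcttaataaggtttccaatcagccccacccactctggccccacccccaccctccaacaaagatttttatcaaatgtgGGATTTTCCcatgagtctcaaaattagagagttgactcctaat

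Il6st: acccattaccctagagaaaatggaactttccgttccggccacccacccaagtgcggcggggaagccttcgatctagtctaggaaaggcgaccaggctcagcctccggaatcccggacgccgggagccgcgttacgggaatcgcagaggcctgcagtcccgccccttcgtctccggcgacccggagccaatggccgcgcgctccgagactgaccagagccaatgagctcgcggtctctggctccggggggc

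The motifs were GGANTTTCC for NF-kB, TTGNGCAA for C/EBP, TGANTCA for AP-1 and TTCNNNGAA for STAT factors, each searched on both strands. The Il6 window held GGATTTTCC with its first base 43 bases before the start, TTGTGCAA at 128 bases and TGAGTCA at 249 bases, and held no match to the STAT letters. No match to the letters of any of the 4 motifs was present in the Il6st window. The base composition differed as well, with 42.8% G and C in the Il6 window and 66.0% in the Il6st window. Of 32851 windows of this length in the RefSeq table, 1.07% held the NF-kB letters, 2.61% the C/EBP letters, 6.75% the AP-1 letters and 7.02% the STAT letters. In all, 6 of the 8 members had 7 windows in the table. Besides Il6, a match was found for Lif, whose window held the AP-1 letters TGACTCA at 228 bases, and none was found for Il6ra, Lifr or Osmr. The windows precede RefSeq starts, and those of Lifr and Osmr lie within the gene spans given below, not upstream of them. The window of Lif ends at position 4257567, just inside the span of its gene. A match describes letters in the window and shows no binding. Looser forms of the motifs were not searched, so a window without a match may still hold a related site.

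Depth and cell identity were checked before the members were compared. Expected counts over annotated genes totalled 32087664 in replicate 2 and 45341960 in replicate 1. All 8 macrophage markers checked, such as Adgre1 and Csf1r, exceeded 10 TPM in both libraries. By counts scaled to library size, the widest apart were Cd14 and Fcgr1, in opposite directions and each under 2-fold. Cd14 had 903 TPM in replicate 2 and 476 TPM in replicate 1, and Fcgr1 had 380 TPM in replicate 2 and 726 TPM in replicate 1. Markers of T cells, B cells, mast cells or basophils and stromal cells were under 1 TPM in both libraries. The 6 neutrophil markers summed to 5.40 TPM in replicate 2 and 60.9 TPM in replicate 1, the 4 megakaryocyte markers to 95.9 TPM in replicate 2 and 274 TPM in replicate 1, and the 4 endothelial markers to 18.6 TPM in replicate 2 and 8.75 TPM in replicate 1. The neutrophil marker Ly6g and the endothelial marker Tek had 0 reads in both libraries. In bulk RNA, fewer cells of a type and less RNA per cell cannot be told apart.

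Ratios of replicate 2 to replicate 1 were taken from expected counts for genes with a mean of at least 10, and a ratio of at least 2-fold was called. With 1 library on each side there is no test, and the 95% intervals given with ratios cover counting error only. Of 12552 genes, 11.3% were called, 5.34% higher in replicate 2 and 5.97% higher in replicate 1. Among the 8 members, 6 had enough counts for a ratio, and 2 of them were called. Il6 was higher in replicate 2 and Osm was higher in replicate 1. The median log2 ratio was 0.06 over the 6 members and -0.02 over all genes with a ratio. The share of genes called was 27.4% at a mean count under 100 and 6.57% at or above 100.

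**Figure D2:**
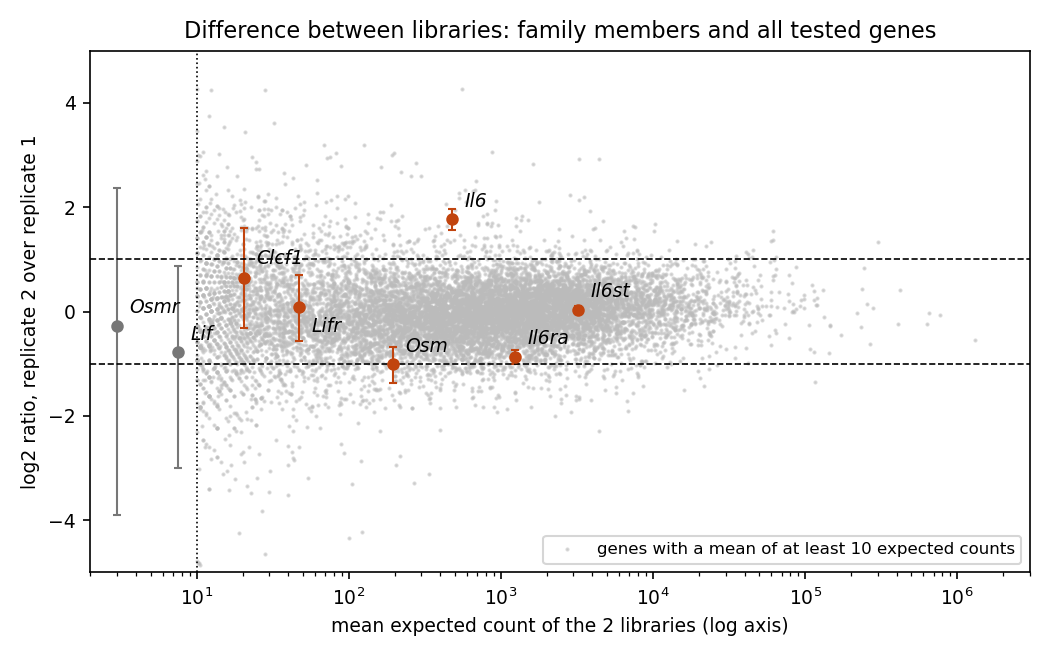
Log2 ratio of replicate 2 over replicate 1 against the mean expected count of each gene (log axis); grey points are all genes with a mean count of at least 10, orange points are the 6 members with a ratio and dark grey points are the 2 members below that count, with 95% counting intervals as bars. Il6 lies above the dashed 2-fold line, Osm lies on the lower line, and Il6st lies at 0.03 near the centre.

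Il6 encodes interleukin 6, an inflammatory cytokine released by activated macrophages. The gene (ENSMUSG00000025746.11) lies on chromosome 5 at 30013114 to 30019981 on the plus strand of mm10. It had 36.3 TPM in replicate 2 and 10.7 TPM in replicate 1, a mean of 23.5 ± 18.1 TPM (SD, n = 2). These levels exceeded those of 85.6% of protein-coding genes in replicate 2 and 72.0% in replicate 1. The values rested on 669 expected counts in replicate 2 (Poisson 95% interval 619 to 722) and 292 in replicate 1 (259 to 327). Counts scaled to library size were 3.40-fold higher in replicate 2 (95% interval 2.96 to 3.92). Thus Il6 was present in both libraries, and its level was known only to within this spread. The second deposited quantification, derived from reads and an index without alignments, gave 34.1 TPM in replicate 2 and 9.09 TPM in replicate 1.

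The endothelial list moved the same way as Il6, through Kdr, a receptor for vascular endothelial growth factor, at 14.3 TPM in replicate 2 and 4.57 TPM in replicate 1. Of the 3 endothelial markers with enough counts, only Kdr was at least 2-fold apart, 3.14-fold higher in replicate 2. Pecam1 was at 3.29 TPM in replicate 2 and 3.69 TPM in replicate 1, and Cdh5 at 1.03 TPM in replicate 2 and 0.49 TPM in replicate 1. Their part in the difference of Il6 was not tested. By Euclidean distance over log2(TPM + 1) in the 2 libraries, the protein-coding genes nearest to Il6 were Akap7, Osgin2 and Acsl3, at distances of 0.065, 0.18 and 0.18. Akap7 had 34.9 TPM in replicate 2 and 11.0 TPM in replicate 1. Osgin2 had 32.1 TPM in replicate 2 and 11.2 TPM in replicate 1, and Acsl3 had 33.0 TPM in replicate 2 and 9.76 TPM in replicate 1. With 2 libraries, this likeness says only that the levels in each library were similar.

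Osm encodes oncostatin M, a cytokine made largely by myeloid cells. The gene (ENSMUSG00000058755.3) lies on chromosome 11 at 4236420 to 4241026 on the plus strand. It had 2.29 TPM in replicate 2 and 4.95 TPM in replicate 1, a mean of 3.62 ± 1.88 TPM (SD, n = 2), from 97 expected counts in replicate 2 and 292 in replicate 1. Scaled counts were 2.02-fold higher in replicate 1 (95% interval 1.60 to 2.57), so the interval reached to both sides of the 2-fold line. The call was lost with size factors from DESeq2, with a prior of 2 reads, with TPM ratios on a pseudocount of 1 and with the second quantification. The direction did not change in any of these, and the log2 ratio of Osm ranged from -1.11 to -0.85 over all settings tried.

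Lif encodes leukemia inhibitory factor, known for its action on stem cells and in inflammation. The gene (ENSMUSG00000034394.14) lies next to Osm on chromosome 11, at 4257557 to 4272514 on the plus strand. A gap of 16530 bases with 0 annotated genes separates the pair, and both are read from the same strand. Lif had 0.05 TPM in replicate 2 and 0.09 TPM in replicate 1, from 4 expected counts in replicate 2 (Poisson 95% interval 1.09 to 10.2) and 11 in replicate 1 (5.49 to 19.7). The mean count was below 10 and no ratio was called. Although the neighbours share a strand and lie close, Osm was the more abundant transcript in both libraries. How far apart they lay depended on the estimate, since the posterior mean TPM of Lif was 0.43 in replicate 2 and 0.36 in replicate 1, beside 2.31 in replicate 2 and 4.89 in replicate 1 for Osm.

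Clcf1 encodes cardiotrophin-like cytokine factor 1, known for supporting neurons and B cells. The gene (ENSMUSG00000040663.9) lies on chromosome 19 at 4214238 to 4223490 on the plus strand. It had 0.81 TPM in replicate 2 and 0.38 TPM in replicate 1, a mean of 0.595 ± 0.304 TPM (SD, n = 2), from 21 expected counts in replicate 2 and 20 in replicate 1. The ratio of 1.56-fold higher in replicate 2 had a 95% interval of 0.805 to 3.04, which included equality. Clcf1-205, a form of 380 bases with 1 expected count in replicate 2, held 0.40 TPM in replicate 2 and 0 TPM in replicate 1. Clcf1-201 ran the other way, at 0.23 TPM in replicate 2 and 0.35 TPM in replicate 1. Clcf1-203, a retained-intron form without a coding sequence, had 0.18 TPM in replicate 2 and 0.03 TPM in replicate 1. It held 12.4 expected counts in replicate 2 and 2.76 in replicate 1. The higher TPM of the gene in replicate 2 thus rested on Clcf1-205 and Clcf1-203, and not on Clcf1-201. The annotated span of Clcf1 is shared with the same-strand gene AC109138.7 and the microRNA gene Gm26115, each with 0 reads in both libraries.

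Among the ligands, Il6 therefore stood highest in both libraries. The TPM of Il6 was 15.8 times that of Osm in replicate 2 and 2.17 times in replicate 1. This distance depended on the library because the pair moved in opposite directions.

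Il6st encodes gp130, the signalling chain that the family shares. The gene (ENSMUSG00000021756.12) lies on chromosome 13 at 112464070 to 112510086 on the plus strand. It had 17.4 TPM in replicate 2 and 17.1 TPM in replicate 1, a mean of 17.3 ± 0.21 TPM (SD, n = 2), from 2607 expected counts in replicate 2 and 3786 in replicate 1. Scaled counts were 1.02-fold higher in replicate 2 with a 95% interval of 0.974 to 1.08. It was the member with the most counts and the smallest spread relative to its mean, above 77.4% of protein-coding genes in replicate 2 and 77.3% in replicate 1.

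Il6ra encodes the interleukin 6 binding chain. The gene (ENSMUSG00000027947.11) lies on chromosome 3 at 89864059 to 89913196 on the minus strand. It had 5.76 TPM in replicate 2 and 10.4 TPM in replicate 1, a mean of 8.08 ± 3.28 TPM (SD, n = 2), from 668 expected counts in replicate 2 and 1815 in replicate 1. Scaled counts were 1.83-fold higher in replicate 1 (95% interval 1.67 to 2.00), which is a difference beyond counting error but under the 2-fold line. An antisense gene, Gm42809, shares 281 bases with the 5′ end of Il6ra. Since the use of strand in counting is not given, reads there could fall to either gene, but Gm42809 held 0 expected counts in replicate 2 and 3.03 in replicate 1.

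Osm and Il6ra were both higher in replicate 1, and so were the neutrophil and megakaryocyte lists. The 3 neutrophil markers with enough counts were all at least 2-fold higher in replicate 1, S100a9 at 1.18 TPM in replicate 2 and 26.4 TPM in replicate 1, S100a8 at 3.72 TPM in replicate 2 and 25.8 TPM in replicate 1, and Ngp at 0.40 TPM in replicate 2 and 7.99 TPM in replicate 1. The megakaryocyte markers with enough counts, 3 of 4, were also at least 2-fold higher in replicate 1. Pf4, at 95.2 TPM in replicate 2 and 271 TPM in replicate 1, made up nearly all of that list's sum. Ppbp had 0.58 TPM in replicate 2 and 2.83 TPM in replicate 1, and Itga2b 0.09 TPM in replicate 2 and 0.40 TPM in replicate 1. Gp1ba, without enough counts, had 0.06 TPM in replicate 2 and 0.11 TPM in replicate 1. The part of either list in the levels of Osm and Il6ra was not tested.

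The balance of the receptor chains for interleukin 6 followed from these values. The TPM of Il6st was 3.02 times that of Il6ra in replicate 2 and 1.65 times in replicate 1, so the shared chain was the more abundant transcript in both libraries. The TPM of Il6 was 6.30 times that of Il6ra in replicate 2 and 1.03 times in replicate 1. Ligand and binding chain were thus near parity as transcripts in replicate 1 and well apart in replicate 2.

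Lifr encodes the signalling chain used by leukemia inhibitory factor and its relatives. The gene (ENSMUSG00000054263.12) lies on chromosome 15 at 7090614 to 7197489 on the plus strand. It had 0.37 TPM in replicate 2 and 0.22 TPM in replicate 1, a mean of 0.295 ± 0.106 TPM (SD, n = 2), from 39 expected counts in replicate 2 and 55 in replicate 1. The log2 ratio of scaled counts was 0.08, with a 95% interval of -0.55 to 0.69. By TPM it was 0.72 on a pseudocount of 0.01, outside that interval, and 0.17 on a pseudocount of 1. The transcript length assigned to Lifr was 5210 bases in replicate 2 and 8298 bases in replicate 1. Osmr, the chain for oncostatin M (ENSMUSG00000022146.12), lies on the same chromosome at 6813577 to 6874969 on the minus strand, and had 0.02 TPM in replicate 2 and 0.13 TPM in replicate 1. These levels came from 2 expected counts in replicate 2 and 4 in replicate 1, so a difference was not detectable at this depth. The gap between Osmr and Lifr is 215644 bases and holds 1 annotated gene, and the pair is read from opposite strands. Oncostatin M transcripts were therefore present in libraries that held at most 4 expected counts from its own receptor chain.

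Ordered by mean TPM, the members ran Il6, Il6st, Il6ra, Osm, Clcf1, Lifr, Osmr and Lif. The ranges of Il6 and Il6st over the 2 libraries overlapped, and those of Osmr and Lif did too, so neither pair can be ordered. Il6 lay above Il6st in replicate 2, at 36.3 TPM against 17.4 TPM, and below it in replicate 1, at 10.7 TPM against 17.1 TPM. The ranges of all other neighbours in the order were separate by this measure. Those of Clcf1 and Lifr were so only narrowly, at 0.38 TPM for Clcf1 in replicate 1 against 0.37 TPM for Lifr in replicate 2. In the second quantification their ranges overlapped, with Clcf1 at 0.305 TPM in replicate 1 and Lifr at 0.447 TPM in replicate 2. By posterior mean TPM, Lifr lay above Clcf1 in both libraries, so the order of these sparse genes depended on the estimate.

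Transcript forms were compared for the 4 genes at 1 TPM or more, from the deposited percentage that each transcript contributes to its gene. Il6-201 held most of Il6, 93.8% in replicate 2 and 85.5% in replicate 1. Il6-204 was at 0% in replicate 2 and 11.8% in replicate 1, while the second quantification put it at 6.22% in replicate 2 and 23.9% in replicate 1. Both quantifications gave this form a larger share in replicate 1, but they differed on its level. The level was 0 TPM in replicate 2 and 1.27 TPM in replicate 1 by the deposited transcript TPM. In the second quantification it was 2.12 TPM in replicate 2 and 2.18 TPM in replicate 1. Il6-204 starts from a different first exon, and its coding sequence of 582 bases is the last part of the 633 bases of Il6-201, without the first 51 bases or 17 codons. The 5′ end of the Il6 reading frame encodes the signal peptide that directs the cytokine to secretion.

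Osm was represented mainly by Osm-201, its coding transcript, at 100% in replicate 2 and 92.7% in replicate 1. The second quantification put it at 91.8% in replicate 2 and 91.2% in replicate 1. The remainder of Osm was a processed transcript without a coding sequence.

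The binding chain came in 2 coding forms, in near equal shares by the deposited percentages. Il6ra-201 held 54.8% of Il6ra in replicate 2 and 52.8% in replicate 1, and Il6ra-202 held 45.2% in replicate 2 and 47.2% in replicate 1. In the second quantification Il6ra-201 held more, 75.5% in replicate 2 and 67.3% in replicate 1. The forms differ in length, with 3343 bases in Il6ra-201 and 8639 bases in Il6ra-202, mostly through a longer 3′ untranslated region. Their coding sequences differ by 3 bases, at positions 941 to 943 of the Il6ra-201 coding sequence counted from its start codon. The spliced coding sequence around the difference is shown because it is all that separates the encoded products, with 24 bases on each side, read 5′ to 3′ on the minus strand of chromosome 3. Capitals mark the extra bases.

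Il6ra-201: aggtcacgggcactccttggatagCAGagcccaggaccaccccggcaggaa

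Il6ra-202: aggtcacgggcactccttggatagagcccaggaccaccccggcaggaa

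The extra bases stand at the start of coding exon 7, which begins at position 89878895 in Il6ra-201 and 89878892 in Il6ra-202. The total length of the coding sequence is 1380 bases in Il6ra-201 and 1377 bases in Il6ra-202, so the reading frame is kept. The deposited values do not show how many reads crossed this junction.

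Il6st-203 led Il6st in the deposited percentages, with 62.8% in replicate 2 and 61.9% in replicate 1, and Il6st-201 held 35.1% in replicate 2 and 37.2% in replicate 1. The second quantification reversed the lead, with 32.4% in replicate 2 and 33.1% in replicate 1 for Il6st-203 and 65.5% in replicate 2 and 64.5% in replicate 1 for Il6st-201. The libraries were close to each other within each quantification, whereas the methods differed, so the leading form of Il6st cannot be told from these tables. Both forms have an identical coding sequence of 2751 bases. They differ in their first exons and in the 3′ untranslated region, with transcript lengths of 8678 bases for Il6st-203 and 5207 bases for Il6st-201. The upstream window shown for Il6st precedes the start of Il6st-203, and Il6st-201 starts further into the gene, at position 112475008.

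**Figure D3:**
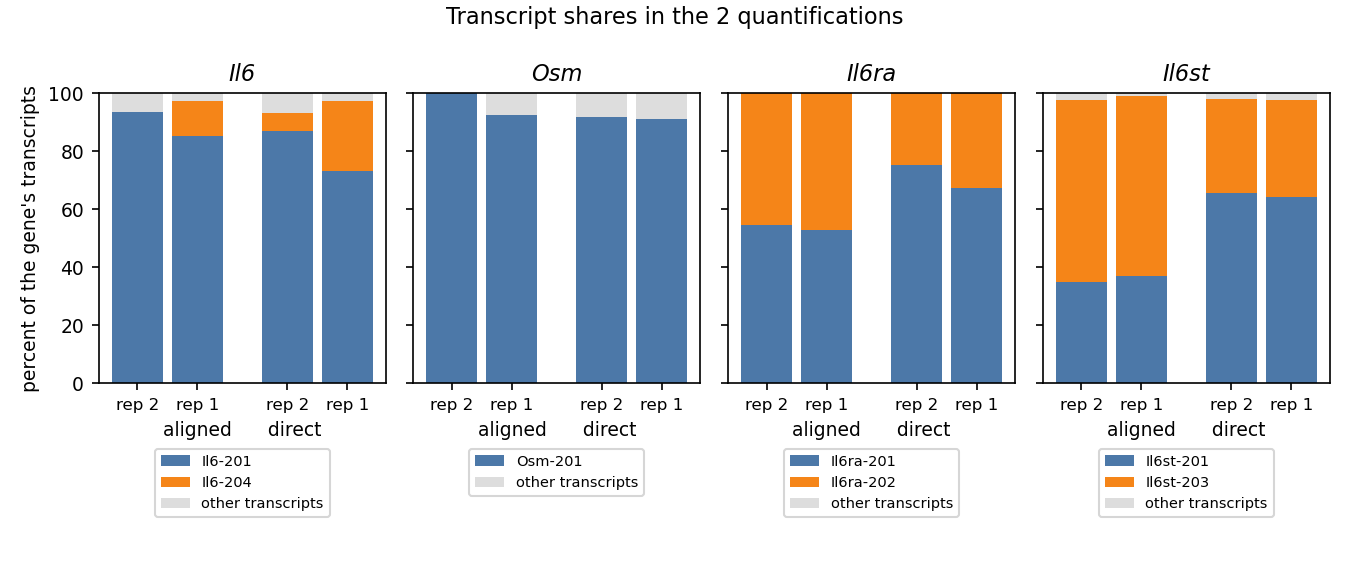
Percent of each gene's transcripts held by its main forms, for Il6, Osm, Il6ra and Il6st, with replicate 2 left of replicate 1 and with the quantification from alignments (aligned) left of the quantification made directly from the reads (direct). For Il6ra and Il6st the libraries lie closer to each other within a method than the methods do within a library, and the share of Il6st-203 in replicate 2 is 62.8% by the aligned and 32.4% by the direct method.

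**Figure D4:**
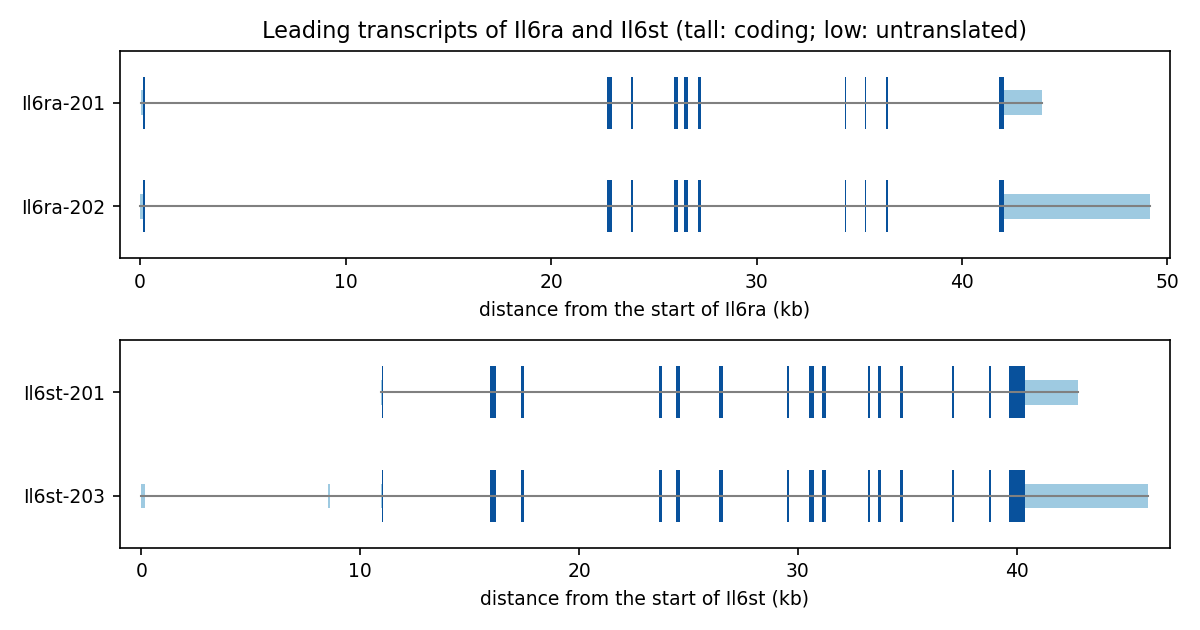
Exons of the leading transcripts of Il6ra and Il6st against the distance in kb from the gene's start, in the direction of transcription; tall dark boxes are coding and low pale boxes untranslated. The forms of Il6ra share their exon layout and differ in the 3′ untranslated region, and Il6st-203 has additional untranslated first exons and a longer 3′ untranslated region than Il6st-201.

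Beyond the 8 members, lists of other pathway genes place the family in its surroundings. Other ligands of the family fell into an abundant pair and a remainder with few or 0 reads. Ebi3, a subunit of interleukin 27, had 378 TPM in replicate 2 and 332 TPM in replicate 1, and Il27, its partner subunit, had 135 TPM in replicate 2 and 119 TPM in replicate 1. The other 6 of 8 ligands were under 1 TPM in both libraries, of which 5 had 0 reads in both. The sixth, Cntf, had 0 TPM in replicate 2 and 0.19 TPM in replicate 1.

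Of 4 other receptor chains, Il11ra1, the binding chain for interleukin 11, was above 10 TPM in both libraries, at 18.3 TPM in replicate 2 and 27.3 TPM in replicate 1. Il27ra, the chain that pairs with gp130 for interleukin 27, had 0.10 TPM in replicate 2 and 0.15 TPM in replicate 1, and the remaining pair had 0 reads in both libraries. The proteases that shed the interleukin 6 receptor were both abundant. Adam17 had 83.8 TPM in replicate 2 and 75.2 TPM in replicate 1, and Adam10 had 35.6 TPM in replicate 2 and 31.5 TPM in replicate 1.

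All 7 JAK kinases and STAT factors listed exceeded 10 TPM in both libraries. Jak1, the kinase bound to gp130, had 119 TPM in replicate 2 and 95.0 TPM in replicate 1. Stat3, the main factor of this pathway, had 106 TPM in replicate 2 and 92.4 TPM in replicate 1. The median log2 ratio of the list was 0.13, and Stat5a was called, 2.20-fold higher in replicate 2.

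Of 8 feedback inhibitors, 7 reached 1 TPM and 4 reached 10 TPM in both libraries. Ptpn6, a phosphatase that restrains cytokine receptors, had 408 TPM in replicate 2 and 378 TPM in replicate 1. Socs3, the inhibitor that binds gp130, had 233 TPM in replicate 2 and 214 TPM in replicate 1, and Ptpn2 had 38.6 TPM in replicate 2 and 30.8 TPM in replicate 1. Socs1 was called, 2.01-fold higher in replicate 1, and the median log2 ratio of the list was 0.13.

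The 10 textbook STAT3 target genes were all at 1 TPM or more in both libraries and 8 of them at 10 TPM. Mcl1, a survival factor, had 406 TPM in replicate 2 and 370 TPM in replicate 1, and Pim1, a kinase, had 222 TPM in replicate 2 and 245 TPM in replicate 1. Socs3 came next with the levels given above. Myc was 2.25-fold higher in replicate 2 and Fos 2.94-fold higher in replicate 1, and the list's median log2 ratio was 0.09. These genes are known to respond to other signals as well.

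All 11 listed regulators of the Il6 transcript, transcription factors and RNA-binding proteins, were at 1 TPM or more in both libraries, 8 of them at 10 TPM, and 0 were called. Atf3, a repressor of Il6 in macrophages, had 591 TPM in replicate 2 and 336 TPM in replicate 1, while its scaled expected counts differed 1.04-fold. Nfkbiz, an NF-kB cofactor required for Il6 induction, had 334 TPM in replicate 2 and 174 TPM in replicate 1, with scaled counts 1.95-fold higher in replicate 2. Zfp36, which promotes decay of AU-rich transcripts, had 158 TPM in replicate 2 and 132 TPM in replicate 1. The list's median log2 ratio was 0.05.

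Across these lists, 47 distinct genes were measured, 37 at 1 TPM and 30 at 10 TPM in both libraries. Of the 38 with enough counts, 4 were at least 2-fold apart, a share of 10.5% beside 11.3% over all genes, with 2 higher in each replicate. The called genes Stat5a, Socs1, Myc and Fos were named after their values were seen.

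**Figure D5:**
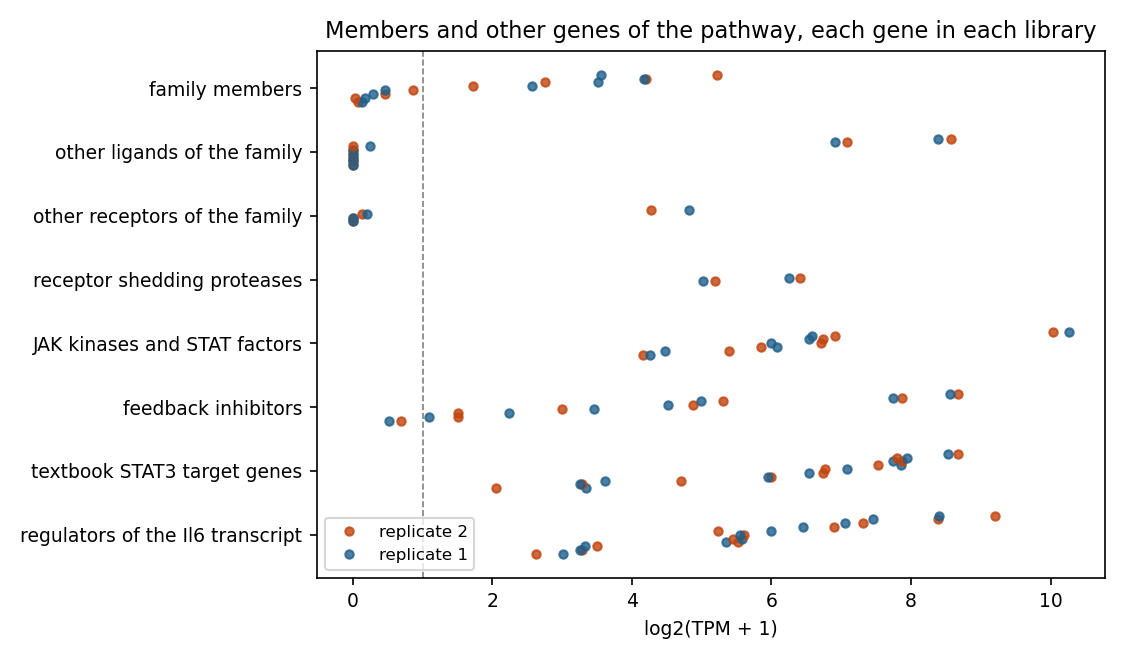
Log2(TPM + 1) of every family member and of every gene in 7 pathway lists, 1 row a list, with orange points for replicate 2 and blue points for replicate 1; the dashed line marks 1 TPM. JAK kinases and STAT factors all lie to the right of the line, while other ligands divide into points near 0 and the pair Ebi3 and Il27.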

How the data were processed

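PolyA plus RNA was sequenced in 2 libraries of 1 treatment group. The labels give 1 µg as the starting quantity and 250 to 400 as the size range, and their molecule entry reads total RNA. The authors' deposited gene tables, on mm10 with GENCODE M21 per the file notes, hold expected counts, TPM and FPKM derived from alignments, and the deposited transcript tables add the percent of each gene's abundance per transcript. Another transcript table that the authors deposited holds estimated counts and TPM derived from the reads and an index, and its sums per gene served as an alternative quantification. For 86 annotated genes without a value there, 0 was used. Program names were not given in the sources used here, nor was the use of strand in counting.

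Of 81881 rows, the 55536 annotated genes were kept, and tRNA, spike-in and phiX rows were left out. Levels are given as TPM, and the mean ± SD is over both libraries. Expected counts of replicate 2 were divided by those of replicate 1 after adding 0.5 reads and scaling to TMM library sizes (edgeR 4.0.16 in R 4.3.3), where the mean expected count was at least 10. Intervals are exact Clopper-Pearson at 95%, from counts rounded to whole numbers. Ratios and intervals were tested on counts simulated with counting error only, so that test does not cover the further spread between these libraries. Intervals and the floor of 3 counts (0.0935 CPM in replicate 2 and 0.0662 CPM in replicate 1) cover counting error only. DESeq2 1.42.0 size factors, also from rounded counts, were an alternative, beside library totals, other priors, filters, levels and calls, TPM ratios, FPKM, posterior mean TPM, TPM rescaled to protein-coding genes and leaving out each library. Python 3.11.15 with numpy 2.4.6, pandas 2.3.3, scipy 1.17.1 and matplotlib 3.10.9 was used.

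The text names all 8 members, transcripts at 10% or more of a member at 1 TPM or more in both libraries, the 3 genes of highest mean TPM in each pathway list and the 3 protein-coding genes nearest to Il6. The forms of Clcf1 were named after their values were seen. A gene that this rule would name among the JAK kinases and STAT factors is not reported here. The members and lists were chosen with earlier results of these data known. Upstream windows are those of RefSeq on GRCm38.p6, with none used for Osm and Clcf1. The lists share Socs3, Stat3 and Cebpd.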

Additional observations from a re-analysis of the deposited data

How the results depend on the processing

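The count of members at 1 TPM in both libraries was 4 under all 8 alternatives run, with the same genes each time. The count at 10 TPM was 2, and it was 1 with FPKM and 1 with the second quantification, where Il6st remained, and 0 at a level of 20 TPM. Leaving out each library gave 2 to 3. The count of members at least 2-fold apart was 2, and it was 1 with DESeq2 size factors, 1 with a prior of 2 reads, 1 with TPM ratios on a pseudocount of 1 and 1 with the second quantification, Il6 in each case. TPM ratios on a pseudocount of 0.01 gave 3, adding Clcf1 at a log2 ratio of 1.07. That ratio depended on Clcf1-205, with 1 expected count in replicate 2, and on the retained-intron form Clcf1-203. A call at 1.5-fold gave 4, while 30.3% of all genes passed it. Il6 was called under every alternative run, with log2 ratios of 1.67 to 1.84, while Il6ra ranged from -0.94 to -0.75 and Il6st from -0.04 to 0.05. Posterior mean TPM raised the mean level of Lif to 0.395 TPM, Clcf1 to 1.08 TPM, Lifr to 1.22 TPM and Osmr to 0.225 TPM. No result changed direction while called. The mean share of Il6st-203 was 62.3% of its gene and 32.8% in the second quantification, that of Il6ra-201 was 53.8% and 71.4%, and that of Il6-201 was 89.6% and 80.3%. The cause of these differences was not tested. No paired analysis was possible because there is 1 group. Depth limits Lif and Osmr, with at most 11 expected counts in a library.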
